A study of Rattus norvegicus with 12 samples.

Results

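The genes described are 10 markers of tubular injury and dedifferentiation, taken by name from a table of 13151 genes measured in rat renal cortex: Havcr1, Lcn2, Spp1, Clu, Vcam1, Krt8, Krt18, Krt19, Vim and Cd44. All 10 were in the table, and all 10 were among the 11633 genes that had enough reads to be tested. They were taken by name, with no threshold on a measured value, but earlier results of these data were known when they were chosen. RNA-seq of 12 male rats at 32 weeks of age was compared between 3 groups of 4. Zucker lean (ZL) rats were the lean controls, and Zucker fatty (ZF) rats lack a functional leptin receptor and become obese. ZF-SGLT2i rats were ZF rats given canagliflozin, an inhibitor of the sodium-glucose cotransporter SGLT2 of the proximal tubule, at 10 mg/kg/day, a treatment that started at 24 weeks and ran for 8 weeks. Rats are named by the numbers in their labels. The lean animals carry 1 to 4, the untreated fatty animals 2 to 5 and the treated animals 2, 3, 4 and 6. Each rat gave 1 library.

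Some limits of the model and the tissue bear on every value below. Whole cortex was sequenced, so a gene's level is an average over tubules, glomeruli, vessels and interstitium, and a change in the number of cells of a type cannot be told apart from a change in RNA per cell. The leptin receptor defect of ZF and ZF-SGLT2i rats is in all their cells and is not particular to the kidney. The study's methods describe earlier open kidney biopsies in ZL rats and in 1 of its ZF cohorts, and none in the ZF cohort that was randomized to treatment. The names that the study gives the sequenced untreated ZF rats fit either cohort. By those methods a biopsy differs between ZL and ZF-SGLT2i rats, so its part in that comparison cannot be told apart from strain and treatment. It also differs in either ZF against ZL or ZF-SGLT2i against ZF, depending on the cohort, and its part there was not tested. Marker genes of segments were read beside the cortex label, but none was specific to the medulla, so they do not test that label. Slc34a1, the main phosphate cotransporter of the proximal tubule, had a mean of 3990 CPM over the 12 rats (CPM, a read count scaled by library size with the TMM factors that edgeR computes to make libraries comparable), and Umod of the thick limb, Hsd11b2 of the collecting duct and Podxl of podocytes had means of 2567, 717 and 936 CPM. Between 8824980 and 12210257 reads per rat lay on genes. ZF rat 5 and ZF-SGLT2i rat 6 had the fewest reads of their groups, 8824980 and 8914666. Reads from Rn28s and Rn45s, the ribosomal RNA that depletion left behind, made up 7.25% to 12.0% of the total per lean rat, 8.82% to 12.0% per untreated fatty rat and 11.5% to 15.2% per treated rat.

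An injured tubule cell loses its brush border and transport proteins, spreads over the bare basement membrane and may divide before it becomes a transporting cell again. During this it switches on genes that a resting proximal tubule cell hardly uses. Some of these encode membrane receptors and secreted proteins, such as kidney injury molecule 1 (Havcr1), neutrophil gelatinase-associated lipocalin (Lcn2), osteopontin (Spp1) and clusterin (Clu). Others encode adhesion proteins and the keratins and vimentin of the cytoskeleton. Cells that stay in this state in place of recovering are often recognised by Vcam1. Several of the genes are also used by other cells of the healthy cortex. Vim is found in podocytes, endothelium and fibroblasts, Krt8, Krt18 and Krt19 in collecting duct and parietal cells, and Vcam1 in endothelium, fibroblasts and parietal cells.

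The promoters of 4 of the genes are printed because the results below turn on these genes. Havcr1, Lcn2 and Spp1 ranked the rats alike within the ZF and within the ZF-SGLT2i group, though not within ZL, and Vcam1 had another order in both fatty groups. RefSeq's promoter table of rat assembly GRCr8 held an entry for 8 of the 10 genes, all except Clu and Krt19. Each sequence is the 250 bases before the annotated start of the gene, 5′ to 3′ on the gene's own strand. The Havcr1 stretch is chr10:31629528-31629777 on the plus strand, that of Lcn2 is chr3:36081781-36082030 on the minus strand, that of Spp1 is chr14:5619805-5620054 on the minus strand, and that of Vcam1 is chr2:206742784-206743033 on the minus strand. Capitals mark matches on either strand to GGGANNNNCC, a form of the NF-kB site, to TGANTCA, the AP-1 site, and to TATAAA, the letters of the TATA box. They are marked wherever they lie in the stretch. In Vcam1 a match to TATAAA on the plus strand overlaps a match on the minus strand, and in Lcn2 and Vcam1 matches to GGGANNNNCC on the plus and minus strand overlap.
Havcr1: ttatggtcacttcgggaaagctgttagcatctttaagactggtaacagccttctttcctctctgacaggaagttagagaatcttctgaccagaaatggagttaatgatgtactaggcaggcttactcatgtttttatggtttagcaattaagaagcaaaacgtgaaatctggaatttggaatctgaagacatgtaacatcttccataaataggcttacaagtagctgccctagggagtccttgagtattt
Lcn2: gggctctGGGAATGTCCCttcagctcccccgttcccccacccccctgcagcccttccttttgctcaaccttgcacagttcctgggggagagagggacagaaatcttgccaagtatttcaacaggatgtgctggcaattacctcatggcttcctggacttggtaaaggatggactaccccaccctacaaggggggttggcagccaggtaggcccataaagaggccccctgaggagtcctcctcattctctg
Spp1: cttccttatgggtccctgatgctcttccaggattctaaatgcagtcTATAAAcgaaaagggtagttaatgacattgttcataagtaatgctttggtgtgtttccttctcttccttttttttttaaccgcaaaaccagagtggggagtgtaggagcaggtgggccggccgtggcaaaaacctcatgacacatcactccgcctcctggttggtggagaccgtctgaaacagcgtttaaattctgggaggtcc
Vcam1: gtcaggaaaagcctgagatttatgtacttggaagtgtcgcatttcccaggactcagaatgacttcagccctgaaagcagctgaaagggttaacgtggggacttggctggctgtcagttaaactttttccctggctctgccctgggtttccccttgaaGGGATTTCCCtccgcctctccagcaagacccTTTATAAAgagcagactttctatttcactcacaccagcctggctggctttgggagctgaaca

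The NF-kB letters were in 4 of the 8 promoters, those of Lcn2, Vcam1, Krt18 and Vim, against 16.4% of all 33469 promoters of this length. In Vcam1 the match GGGATTTCCC lay 84 to 93 bases before the start. The TATAAA letters were in Spp1, Vcam1, Krt8 and Vim, 4 of the 8, against 12.9% of all promoters. On the gene's own strand they lay 199 to 204 bases before the start in Spp1 and 99 to 104 in Krt8. In Vim they lay at 77 to 82 and in Vcam1 at 55 to 60 bases. The AP-1 letters were in 0 of the 8, against 6.34% of all promoters. A match is a description of the letters and not evidence that a factor binds.

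ZF rats were compared with ZL rats to ask which of the markers differed in the cortex of obese animals. Of the 10 markers, 8 were higher in ZF and none was lower in the limma fit, at an adjusted p under 0.05. For comparison, 8.19% of all genes tested were called higher, 10.6% lower and 18.8% in either direction. An unadjusted p under 0.05 was reached by the same number of markers, 8, and by 33.1% of all genes. The 8 were Havcr1, Lcn2, Spp1, Clu, Krt8, Krt18, Vim and Cd44. In each of them all 4 ZF rats lay above all 4 ZL rats, an arrangement that 8.67% of all tested genes showed. Vcam1 and Krt19 were not called. The median log2 fold change of the 10 genes was 1.08, against -0.00771 over all genes tested.

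**Figure D1:**
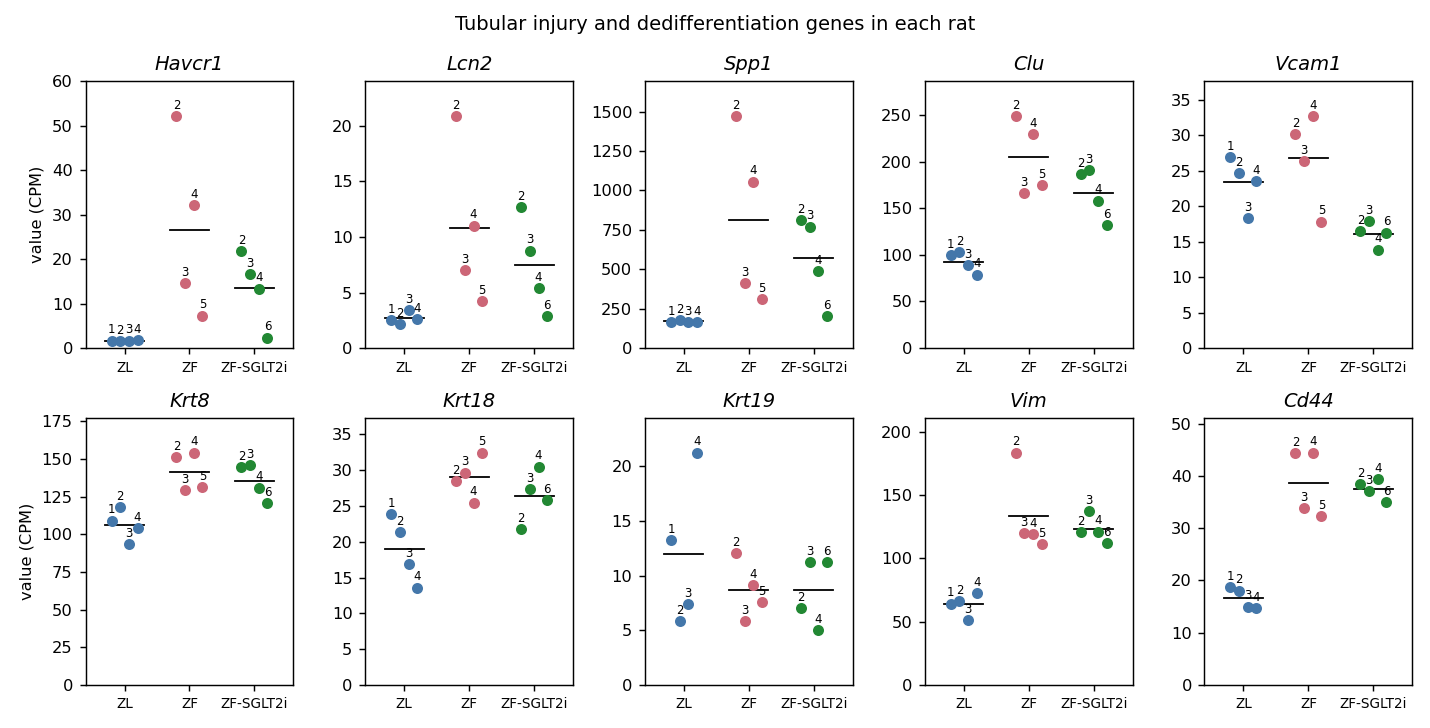
Level of each marker in every rat, as CPM on a linear axis from 0 with its own scale for each gene, with a numbered point for each rat of the ZL, ZF and ZF-SGLT2i groups and a bar at the group mean. The 4 ZL points of Havcr1 and Spp1 lie close together while the ZF and ZF-SGLT2i points spread widely, and for Cd44 and Clu the ZF and ZF-SGLT2i points form a tighter band above ZL.

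Havcr1, a phosphatidylserine receptor that lets injured tubule cells take up dying neighbours, was low in lean rats. The ZL rats 1 to 4 had 1.70, 1.56, 1.70 and 1.88 CPM, which were 15 to 21 reads. The ZF rats 2 to 5 had 52.3, 14.6, 32.1 and 7.32 CPM, and the ZF-SGLT2i rats 2, 3, 4 and 6 had 21.9, 16.7, 13.4 and 2.34 CPM. Every rat of the fatty strain was above every lean rat, although ZF-SGLT2i rat 6 and ZL rat 4 both had 21 reads. The ZF rats differed among themselves by 7.14-fold and the ZF-SGLT2i rats by 9.36-fold, against 1.20-fold in ZL. The log2 fold change of ZF over ZL was 3.01 (SE 0.57, limma adjusted p = 0.0038). It is on the log2(CPM + 1) scale, which understates the change of a gene this low. The same contrast came to 3.97 in edgeR and in DESeq2 on the whole reads.

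Lcn2 encodes a secreted lipocalin that binds bacterial siderophores and is released by stressed distal and collecting duct cells and by neutrophils. The ZL rats had 2.51, 2.17, 3.40 and 2.59 CPM, the ZF rats 20.9, 7.02, 11.0 and 4.26 CPM, and the ZF-SGLT2i rats 12.7, 8.78, 5.43 and 2.90 CPM. The ZF group lay wholly above ZL, whereas ZF-SGLT2i rat 6 lay below ZL rat 3. ZF exceeded ZL by 1.50 on the log2 scale (SE 0.40, limma adjusted p = 0.021). The call was lost without ZL rat 1 (log2 fold change 1.48, adjusted p = 0.0516) and without ZF rat 2 (1.13, adjusted p = 0.0588). Neutrophil genes were low in these libraries, and the part of neutrophils in the Lcn2 result was not tested. Of 9 neutrophil markers 3 were in the table and 1 was tested, Csf3r with a mean of 1.51 CPM. The 3 together summed to 1.26, 1.30, 1.25 and 1.70 CPM in ZL, 3.26, 1.40, 2.14 and 2.19 CPM in ZF and 4.09, 1.01, 0.906 and 1.67 CPM in ZF-SGLT2i rats, and S100a9 was at 0 in 5 and Cxcr2 in 3 of the 12 rats.

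Spp1, whose product osteopontin is a secreted ligand of integrins and of Cd44 and an inhibitor of crystal growth in urine, is expressed in thick limb and distal cells at rest. The ZL rats had 167, 178, 166 and 166 CPM. The ZF rats had 1473, 411, 1056 and 313 CPM, and the ZF-SGLT2i rats had 811, 771, 489 and 204 CPM. The lean rats differed among themselves by 1.08-fold and the ZF rats by 4.71-fold, and neither fatty group overlapped with ZL. The log2 fold change of ZF over ZL was 1.98 (SE 0.47, limma adjusted p = 0.011).

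Clu, which encodes the secreted chaperone clusterin, showed a smaller and steadier rise. The ZL rats had 100, 103, 88.6 and 78.7 CPM, the ZF rats 249, 166, 229 and 175 CPM, and the ZF-SGLT2i rats 187, 191, 158 and 132 CPM. ZF exceeded ZL by 1.12 (SE 0.14, limma adjusted p = 0.00030), with all fatty rats above all lean rats.

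The remaining secreted markers of a list of 16 injury-related proteins were measured beside them. Of 15 tested, 6 were higher and 2 lower in ZF than in ZL. Tff3, an epithelial repair peptide, fell from 158 to 13.7 CPM in group means (log2 fold change -3.44, limma adjusted p = 0.0076), with overlapping groups. The list is thus not of 1 direction. It also holds Egf, a growth factor of the thick limb and distal tubule and its most abundant gene with 1472 CPM over all rats, which was lower by 0.72 in ZF (limma adjusted p = 0.0014).

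Cd44, the receptor for hyaluronan and osteopontin, had the smallest p-value of the 10 markers. The ZL rats had 18.8, 18.0, 15.0 and 14.7 CPM, the ZF rats 44.3, 33.8, 44.4 and 32.2 CPM, and the ZF-SGLT2i rats 38.4, 37.0, 39.3 and 34.9 CPM. The rise over ZL was 1.16 in ZF (SE 0.11, limma adjusted p = 3.0e-05) and 1.13 in ZF-SGLT2i rats (SE 0.11, limma adjusted p = 2.2e-05). Its spread was narrow in the treated rats, 1.13-fold from lowest to highest, where Havcr1 spanned 9.36-fold in the same animals.

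Of 20 partners of these markers (integrins and other receptors for osteopontin, the lipocalin receptors, hyaluronan enzymes, phosphatidylserine receptors), 14 were tested, 4 of which were higher and none lower in ZF than in ZL. The osteopontin and fibronectin receptor subunits Itgb5, Itga5 and Itga8 rose by 0.46, 0.52 and 0.73 on the log2 scale (limma adjusted p = 0.0016, 0.0086 and 0.028), and Axl, a receptor kinase that like Havcr1 serves the uptake of dying cells, rose by 0.91 (limma adjusted p = 0.0017). Lrp2, the megalin receptor through which proximal tubule cells take up Lcn2 protein, was not called in ZF against ZL and was called lower in ZF-SGLT2i against ZL. Its means were 10736.5 CPM in ZL, 7835 CPM in ZF and 6440 CPM in ZF-SGLT2i rats, and the log2 fold change was -0.47 in ZF (limma adjusted p = 0.073) and -0.75 in ZF-SGLT2i over ZL (limma adjusted p = 0.0057). Slc22a17, the other lipocalin receptor, and Itgb1 had log2 fold changes of -0.08 and 0.10 in ZF over ZL and were not called. The hyaluronan enzymes Has3, Hyal1 and Hyal2 were likewise not called, at 0.26, -0.02 and 0.08, and nor were Itgb3, Itga4, Itgb7 and Mertk, at 0.01, 0.24, 0.30 and 0.16.

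Vim encodes vimentin, the intermediate filament of mesenchymal cells, which tubule cells make after injury. The ZL rats had 64.2, 66.2, 51.5 and 72.4 CPM, the ZF rats 184, 120, 119 and 111 CPM, and the ZF-SGLT2i rats 121, 137, 121 and 112 CPM. The 8 fatty rats lay above the 4 lean rats, and ZF rat 2 stood apart from the other ZF rats. ZF exceeded ZL by 1.04 (SE 0.14, limma adjusted p = 0.00045). Podocyte markers were set beside Vim. In 1 of the 8 tested, all ZF rats lay above all ZL rats, an arrangement of 8.67% of all genes tested. Of these 8 podocyte markers, 5 were called higher and none lower in ZF than in ZL, led by Cdkn1c with 0.96 (limma adjusted p = 3.2e-05). Their sum was 1364, 1719, 1294 and 1409 CPM in ZL, 1967, 1916, 1638 and 2080 CPM in ZF and 1637, 1988, 2098 and 2087 CPM in ZF-SGLT2i rats, none of the 8 was at 0 in any rat, and Podxl was the most abundant. Of the 9 endothelial markers 2 were called higher, Egfl7 by 0.50 (limma adjusted p = 0.020) and Tie1, and 7 did not pass. Kdr was the most abundant. Their sum was 652, 756, 541 and 697 CPM in ZL, 809, 845, 756 and 766 CPM in ZF and 703, 833, 709 and 939 CPM in ZF-SGLT2i rats, and none of the 9 was at 0. Of 8 fibroblast and mural genes tested, 7 had a positive difference in ZF over ZL and 2 were called higher, and their list had its highest sum, 1028 CPM, in ZF rat 2, the rat that stood apart in Vim. Among the ZF rats the podocyte sum was highest in rat 5. The part of podocytes, endothelium or fibroblasts in the Vim result was not tested.

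Krt8 and Krt18 encode the partner keratins of simple epithelia, which pair to form a filament. Krt8 was 109, 118, 93.4 and 104 CPM in ZL, 151, 129, 154 and 131 CPM in ZF and 145, 146, 131 and 121 CPM in ZF-SGLT2i rats. Krt18 was 23.9, 21.3, 16.9 and 13.6 CPM in ZL, 28.5, 29.7, 25.5 and 32.5 CPM in ZF and 21.8, 27.4, 30.5 and 25.9 CPM in ZF-SGLT2i rats. Both were higher in every ZF rat than in any ZL rat, and for Krt18 alone of the pair a treated rat, ZF-SGLT2i rat 2, fell within the ZL range. The log2 fold change of ZF over ZL was 0.41 for Krt8 (SE 0.09, limma adjusted p = 0.0061) and 0.62 for Krt18 (SE 0.15, limma adjusted p = 0.012), less than for Vim, Clu and Cd44. With a block for rat number the Krt18 call was lost (0.68, limma adjusted p = 0.054). The ratio of the 2 transcripts varied between rats, from 4.04 in ZF rat 5 to 7.65 in ZL rat 4. Krt8 over Krt18 was 5.82 ± 1.30 in lean, 4.94 ± 0.918 in untreated fatty and 5.23 ± 1.03 in treated rats (SD, n = 4 each), and the exact permutation p for ZF against ZL was 0.314, or 0.629 after adjustment over the 6 ratio tests. No equality of the groups follows from that p.

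Krt19, a keratin of the collecting duct that dedifferentiated tubules also express, did not follow the pair. It was 13.3, 5.81, 7.37 and 21.3 CPM in ZL, 12.1, 5.81, 9.14 and 7.54 CPM in ZF and 7.05, 11.2, 5.03 and 11.3 CPM in ZF-SGLT2i rats. The groups overlapped throughout, and the spread was widest in the lean rats, 3.66-fold. The log2 fold change of ZF over ZL was -0.31 (95% interval -1.04 to 0.42, limma adjusted p = 0.58), and it turned to 0.0059 without ZL rat 4. The ratio of Krt19 to Krt18 was 0.708 ± 0.584 in lean, 0.303 ± 0.107 in untreated fatty and 0.333 ± 0.122 in treated rats (SD, n = 4 each), and no ratio test passed (exact permutation p from 0.143 to 0.857, adjusted p from 0.629 to 0.857).

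Collecting duct markers varied beside the keratins. Of 11 tested, 1 was called higher and none lower in ZF than in ZL, Scnn1g of the epithelial sodium channel by 0.56 (limma adjusted p = 0.0065), and 8 were called higher in ZF-SGLT2i than in ZL rats. Over all genes tested, 8.19% were called higher in ZF than in ZL and 12.4% in ZF-SGLT2i than in ZL rats. Their sum was 2377, 3158, 2522 and 1991 CPM in ZL, 2606, 3151, 2349 and 3379 CPM in ZF and 3532, 3720, 3702 and 4141 CPM in ZF-SGLT2i rats, with Hsd11b2 as the most abundant and none at 0 in any rat. The treated rats were the highest in this sum but not in Krt8, Krt18 or Krt19. The part of collecting duct cells in the keratin results was not tested. Markers of urothelium, which could enter with the renal pelvis, were near 0, with 5 of 6 in the table, 1 tested and Upk1a the most abundant at 1.28 CPM.

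Other intermediate filament genes from a list of 12 were compared with Vim and the keratins. Of 6 tested, 3 were called higher and 1 lower in ZF than in ZL. Des, a filament of mesangial and smooth muscle cells among others, rose from 11.1 to 26.3 CPM (log2 fold change 1.17, limma adjusted p = 0.0020) and Nes, a podocyte filament, from 147 to 265 CPM (0.86, limma adjusted p = 0.00040), whereas Krt10 fell from 3.58 to 1.92 CPM (-0.65, limma adjusted p = 0.039). Krt7, Krt20 and Krt5 were not analysed here. Of 15 annexins, S100 proteins and related actin-binding genes, 7 were higher and 1 lower, with S100a6 at 0.78 (limma adjusted p = 0.0049) and Anxa6 at -0.41 (limma adjusted p = 0.0019).

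**Figure D2:**
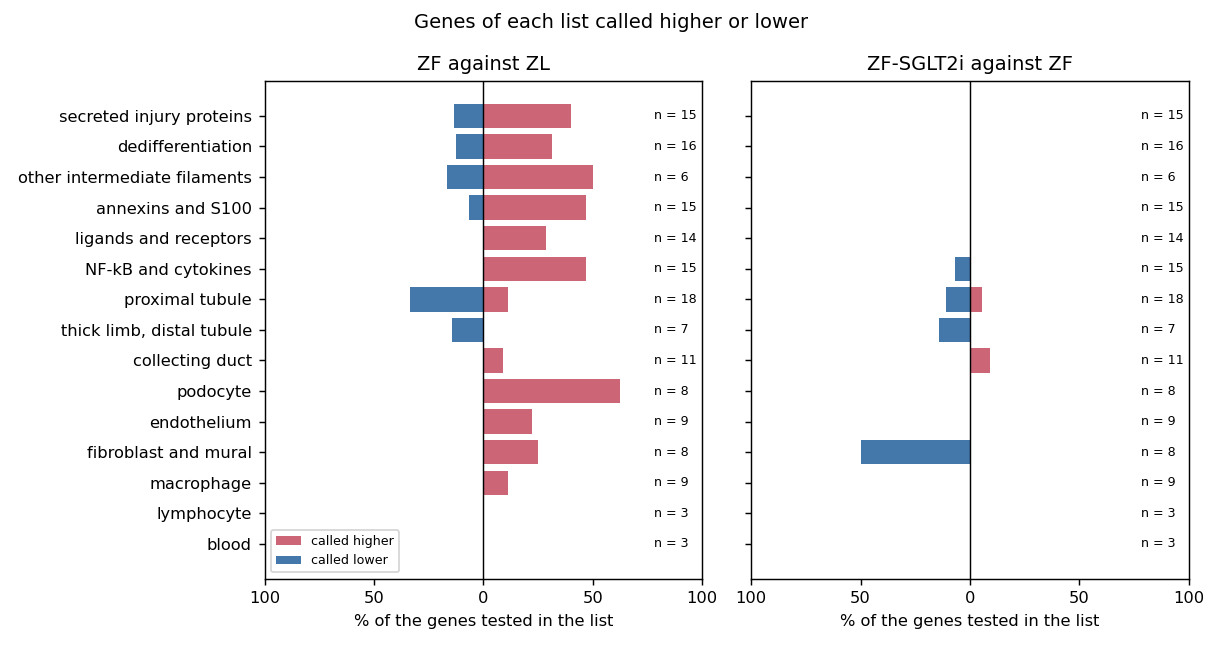
Share of the tested genes of each list, in percent, called higher (right of 0) or lower (left of 0) at a limma adjusted p under 0.05, for untreated fatty against lean rats and for treated against untreated fatty rats, with the number tested beside each bar. The 6 injury lists at the top hold more calls in the first comparison than in the second, where the fibroblast and mural list has 4 of 8 called lower.

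A wider set of 16 dedifferentiation genes gave 5 higher and 2 lower in ZF than in ZL. Runx1, a transcription factor induced in injured tubules, rose from 3.01 to 6.32 CPM (log2 fold change 0.86, limma adjusted p = 0.0010), and Itgb8 fell by 0.42 on the log2 scale (limma adjusted p = 0.020). Among 18 genes of the mature proximal tubule, 2 were higher and 6 lower. Ggt1, a brush border enzyme, fell from 559 to 217 CPM (log2 fold change -1.26, limma adjusted p = 0.016), whereas Pck1, the gluconeogenic carboxykinase, rose from 1640 to 2621 CPM (0.71, limma adjusted p = 0.029). The summed level of the 18 was 24474, 23941, 26390 and 21103 CPM in ZL and 19504, 21055, 24464 and 19848 CPM in ZF rats, and the groups overlapped. Of 15 tested NF-kB and cytokine genes, 7 were higher and none lower, with Cxcl10 leading at 0.77 (limma adjusted p = 0.041).

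The fatty rats did not carry the markers evenly. Havcr1, Lcn2 and Spp1 put the ZF rats in the same order, rat 2, 4, 3 and 5 from high to low, and put the ZF-SGLT2i rats in the order 2, 3, 4 and 6. Divided by the ZL mean, Spp1 was 8.70, 2.42, 6.24 and 1.85 in ZF rats 2 to 5 and 4.79, 4.55, 2.89 and 1.20 in ZF-SGLT2i rats 2, 3, 4 and 6. Lcn2 was 7.83, 2.63, 4.13 and 1.60 times the ZL mean in the ZF rats and 4.75, 3.29, 2.04 and 1.09 times in the ZF-SGLT2i rats. ZF rat 2 was the highest of its group in 6 of the 10 genes, ZF rat 5 the lowest in 6, and ZF-SGLT2i rat 6 the lowest in 7. ZF rat 5 and ZF-SGLT2i rat 6 were also the shallowest libraries of their groups, and ZF-SGLT2i rat 6 had the largest share of ribosomal reads, 15.2%. The sums of the fibroblast and mural list (1028, 976, 736 and 619 CPM) and of the macrophage list (140, 139, 131 and 95.9 CPM) put the ZF rats in that same order, 2, 4, 3 and 5, while both put the ZF-SGLT2i rats in the order 2, 6, 3 and 4. Both lists are described in full with Vcam1. The part of depth, of ribosomal reads and of these cell types in the order was not tested.

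**Figure D3:**
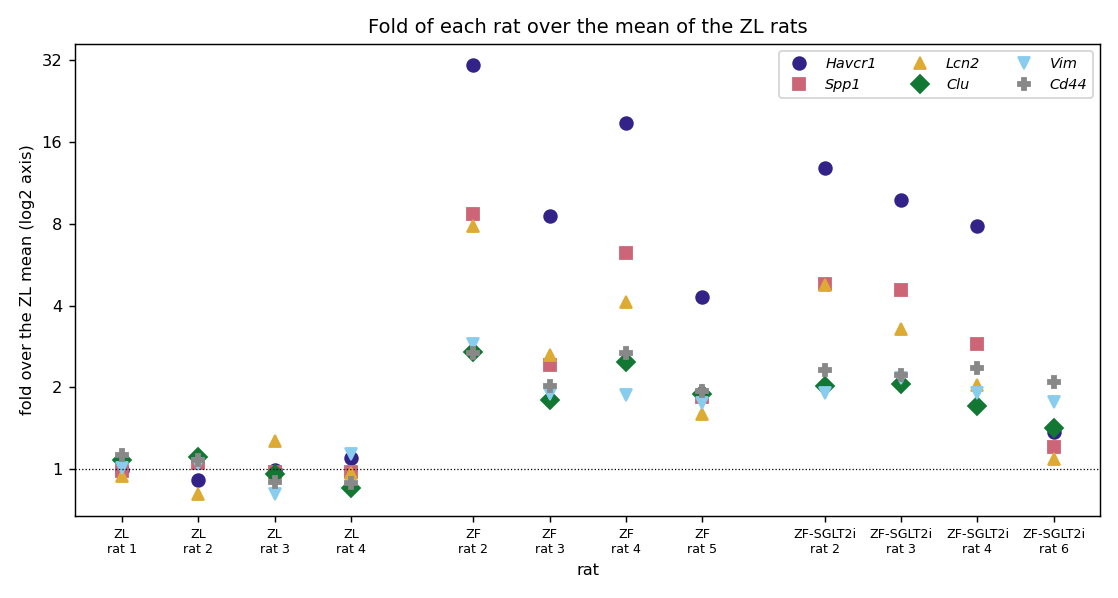
Level of 6 markers (Havcr1, Spp1, Lcn2, Clu, Vim and Cd44) in each of the 12 rats divided by the mean of the 4 ZL rats, on a log2 axis, with a dotted line at 1. Havcr1, Spp1 and Lcn2 spread from near 1 in ZF-SGLT2i rat 6 up to 30.6-fold for Havcr1 in ZF rat 2, while the points of Cd44 lie close together in the 8 fatty rats.

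Likeness between genes was measured as the root mean square difference of their log2(CPM + 1) values, each standardised over the 12 rats, so that 0 means the same pattern. It is a description, since all genes share the same libraries and the same group differences. Among the markers, Havcr1 and Spp1 were the closest pair at 0.180, followed by Lcn2 and Spp1 at 0.243 and Havcr1 and Lcn2 at 0.268. Clu lay nearest to Krt8 (0.302) and to Cd44 (0.320), and Vim was 0.362 from Cd44. Vcam1 and Krt19 were at least 1.17 from every other marker. Over the 9841 tested genes whose mean reached 5 CPM, the gene outside the markers most like Havcr1, Lcn2 and Spp1 was in each case C4b, a complement component, at 0.307, 0.354 and 0.324. C4b had group means of 7.54 CPM in ZL, 64.3 CPM in ZF and 26.8 CPM in ZF-SGLT2i rats. The next nearest were Ltbp2 and Gpnmb to Havcr1, Ptafr and Osmr to Lcn2, and Tgif1 and Ltbp2 to Spp1. Clu was close to Ltbp2 and Runx1, and Krt8 to S1pr2 and S100a6. Cd44 was most like Prnp at 0.209, Cst3 at 0.242 and Avpi1 at 0.270. Vim was most like Capn5, S100a6 and Pfkfb3, and Krt18 most like Sostdc1, Cd9 and Pls3. Krt19 lay nearest to Cgref1, Sox7 and Ace, at 0.415 to 0.501. Vcam1 was most like the complement proteases C1r and C1s, at 0.253 and 0.255, and elastin (Eln) at 0.329.

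ZF-SGLT2i rats were compared with ZF rats to ask whether the markers were lower after canagliflozin. Vcam1 was the only marker called, and it was lower, while 3.15% of all genes tested were called in either direction, 1.39% higher and 1.75% lower. All 10 log2 fold changes were negative, with a median of -0.213 against 0.00643 over all genes, but 9 of them did not pass the test. Without ZF rat 2 the median was -0.0541 and Krt19, Vim and Cd44 were positive, and without ZF-SGLT2i rat 6 the median was -0.121. The mean of Havcr1 was 13.6 ± 8.27 CPM in treated and 26.6 ± 20.0 CPM in untreated rats (SD, n = 4 each), a log2 difference of -0.89 (95% interval -2.12 to 0.34, limma adjusted p = 0.46). That interval holds no change as well as a fall of several fold. The difference was -0.28 without ZF-SGLT2i rat 6, -0.46 without ZF rat 2 and -1.36 without ZF rat 5, and its adjusted p ran from 0.179 to 0.842 over the fits without 1 of the rats. For Lcn2 the difference was -0.43 (95% interval -1.30 to 0.43, limma adjusted p = 0.64) and for Spp1 it was -0.42 (95% interval -1.43 to 0.59, limma adjusted p = 0.70), with neither called when any rat was left out. Lcn2 was -0.07 without ZF rat 2, -0.11 without ZF-SGLT2i rat 6 and -0.75 without ZF rat 5, and Spp1 was -0.04, 0.01 and -0.78. Clu came nearest to the threshold of these, at -0.29 (95% interval -0.60 to 0.02, limma adjusted p = 0.33). The treated and untreated rats overlapped in each of these genes, although ZF-SGLT2i rat 6 was below every untreated rat for Havcr1, Lcn2 and Spp1, as were 2 treated rats for Clu.

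Cd44, Krt8 and Vim had narrower intervals than Havcr1, Lcn2 and Spp1. Cd44 differed by -0.03 between treated and untreated rats, with a 95% interval from -0.28 to 0.21 (limma adjusted p = 0.92), Krt8 by -0.06 (-0.25 to 0.12, limma adjusted p = 0.77) and Vim by -0.09 (-0.39 to 0.21, limma adjusted p = 0.79). Krt18 differed by -0.14 (-0.46 to 0.18, limma adjusted p = 0.69) and Krt19 by -0.02 (-0.75 to 0.71, limma adjusted p = 0.98). The interval of Krt19 was the widest of these 5.

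**Figure D4:**
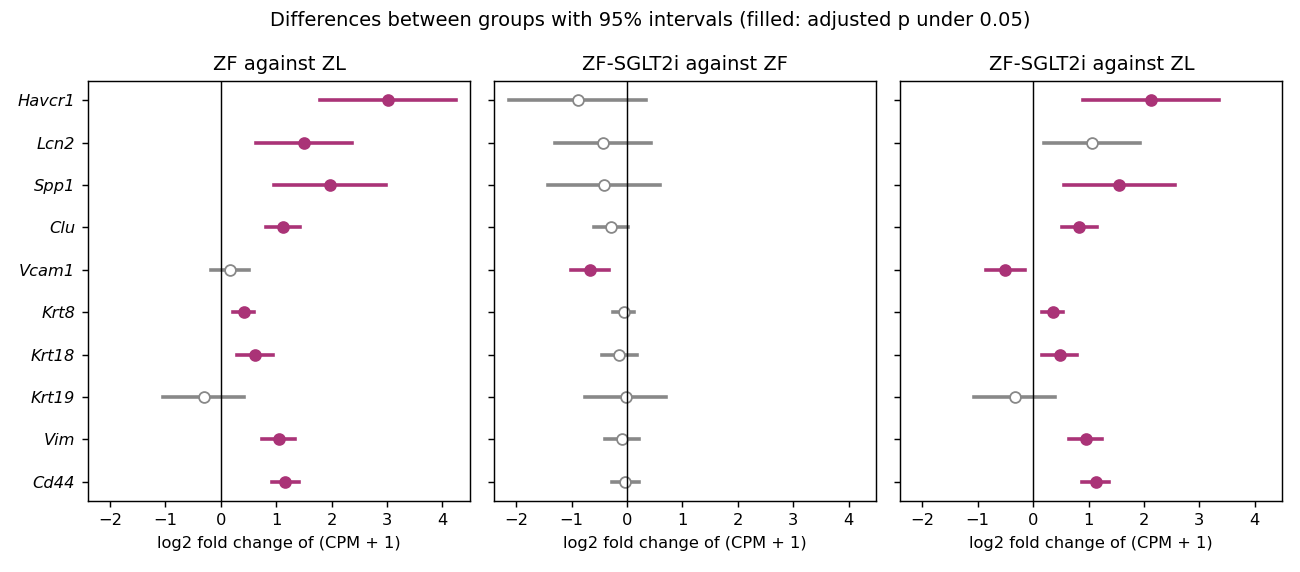
Log2 fold change of each marker with its 95% interval from the limma fit, for the comparisons of ZF with ZL, of ZF-SGLT2i with ZF and of ZF-SGLT2i with ZL, with a vertical line at 0 and filled points where the adjusted p was under 0.05. In ZF against ZL 8 intervals lie above 0, and in ZF-SGLT2i against ZF the interval of Vcam1 alone excludes 0, with an upper end of -0.32.

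Vcam1 encodes an adhesion protein that binds the integrin of leukocytes and is an NF-kB target in endothelium and tubule. The ZL rats had 26.9, 24.6, 18.4 and 23.6 CPM, the ZF rats 30.2, 26.4, 32.7 and 17.8 CPM, and the ZF-SGLT2i rats 16.5, 17.9, 13.9 and 16.3 CPM. ZF rat 5, the lowest of its group, was just below the highest treated rat, and no treated rat reached the lowest ZL rat. The treated rats were lower than ZF by 0.67 on the log2 scale (95% interval -1.02 to -0.32, limma adjusted p = 0.039), while the exact two-sided permutation p was 0.0571 for these 4 against 4 rats, where the smallest possible is 0.0286. Its log2 fold change was 0.17 in ZF over ZL (limma adjusted p = 0.52) and -0.50 in ZF-SGLT2i over ZL (SE 0.16, limma adjusted p = 0.034). The call against ZF was lost, with adjusted p from 0.0737 to 0.12, on leaving out ZF rat 2, 3 or 4 or any of the 4 treated rats, and the call against ZL was lost, with adjusted p from 0.0587 to 0.1, without ZL rat 1, 2 or 4 or treated rat 2, 4 or 6. With a block for rat number the call against ZL was also lost (limma adjusted p = 0.0727). The direction was the same in each of these.

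Genes of fibroblasts and mural cells were set beside Vcam1. Of the 8 tested, 2 were higher in ZF than in ZL, and all 8 had a negative difference in ZF-SGLT2i against ZF, where 4 were called lower and none higher. Dcn, the matrix proteoglycan decorin, had the largest fall, from 91.7 to 40.3 CPM (log2 fold change -1.11, limma adjusted p = 0.0083), and Pdgfrb, the receptor of pericytes, had the largest rise in ZF over ZL, from 95.1 to 152 CPM (0.67, limma adjusted p = 0.0022). With Lum, which was too low to be tested, the 9 genes of the list summed to 705, 671, 492 and 740 CPM in ZL, 1028, 736, 976 and 619 CPM in ZF and 524, 504, 500 and 509 CPM in ZF-SGLT2i rats. Pdgfra was the most abundant, and none of the 9 was at 0 in any rat. ZF rat 5 had the lowest sum of the ZF group, as it had the lowest Vcam1. Of the 9 endothelial genes, whose sums are given above, 0 were called in ZF-SGLT2i against ZF and 1 had an unadjusted p under 0.05. The part of fibroblasts, mural cells or endothelium in the Vcam1 result was not tested.

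**Figure D5:**
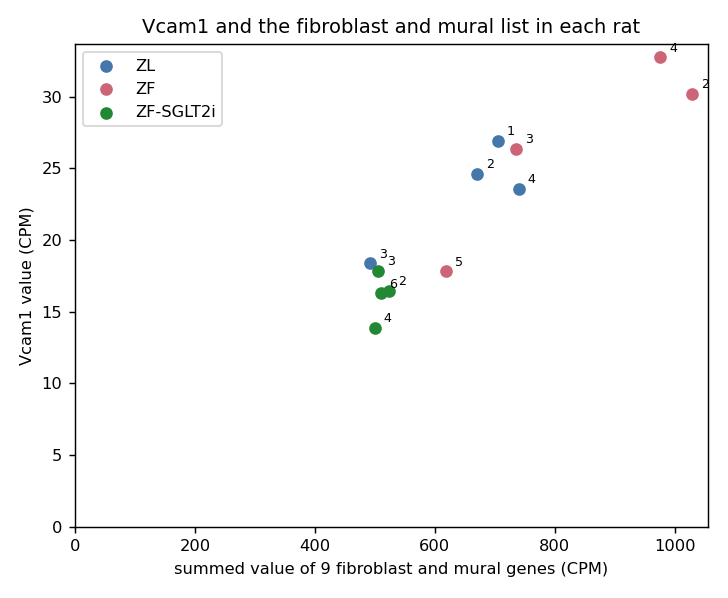
Vcam1 level against the summed level of 9 fibroblast and mural cell genes, as CPM on linear axes, with a point for each of the 12 rats marked by group. The 4 ZF-SGLT2i rats lie together at low Vcam1 (13.9 to 17.9 CPM) and low sums (500 to 524 CPM), near ZL rat 3, and ZF rats 2 and 4 lie highest on both axes.

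The leukocytes that bind Vcam1 were represented by macrophage and lymphocyte markers. Of 9 macrophage genes tested, 1 was higher in ZF than in ZL, Cd14 by 0.57 (limma adjusted p = 0.017), and none was called in ZF-SGLT2i against ZF, where 1 had an unadjusted p under 0.05. The 10 macrophage genes summed to 99.4, 107, 75.2 and 105 CPM in ZL, 140, 131, 139 and 95.9 CPM in ZF and 163, 101, 85.0 and 103 CPM in ZF-SGLT2i rats, with Csf1r as the most abundant and Cd163 at 0 in 1 rat. ZF-SGLT2i rat 2 was the highest of the 12 in this sum, and the groups overlapped. Of 10 lymphocyte genes 6 were in the table and 3 were tested, none called between ZF and ZL or between treated and untreated rats, with Cd4 the most abundant at 19.9 CPM. All 3 had a negative difference in treated against untreated rats (median -0.514), 2 of them at an unadjusted p under 0.05. Cd2, with 1.51, 1.21 and 0.550 CPM in ZL, ZF and treated rats, lay lower in every treated than in any untreated rat and was called lower in treated than in lean rats (log2 fold change -0.67, limma adjusted p = 0.018). Itga4 and Itgb7, subunits of the integrins that bind Vcam1, had means of 8.66 and 2.36 CPM in ZF and 5.53 and 1.87 CPM in treated rats, and log2 differences of -0.57 (limma adjusted p = 0.090) and -0.19 (limma adjusted p = 0.66). Of the 15 tested NF-kB and cytokine genes, 1 was lower in treated than in untreated rats, Cxcl16, a membrane chemokine of tubule cells, by 0.54 on the log2 scale (limma adjusted p = 0.010).

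Cxcl16 was the only gene of the injury lists beside the markers to pass the adjusted test between treated and untreated rats. Over all genes tested, 3.15% passed it. None of the 15 secreted injury genes, 16 dedifferentiation genes, 6 other intermediate filament genes, 15 annexin and S100 genes or 14 partners was called in ZF-SGLT2i against ZF by limma, while 3, 2, 2, 8 and 5 of them had an unadjusted p under 0.05, against 17.2% of all genes tested. In the NF-kB and cytokine list, where Cxcl16 was called, 7 of 15 had an unadjusted p under 0.05. Of the 18 proximal tubule genes, 1 was called higher, the fatty acid transporter Slc27a2 by 0.33 (limma adjusted p = 0.035), and 2 were called lower, led by Fbp1 of gluconeogenesis at -0.65 (limma adjusted p = 0.019). In the thick limb list of 7, Cldn10 was lower by 0.76 (limma adjusted p = 0.022), and in the collecting duct list Aqp2 was higher by 0.62 (limma adjusted p = 0.0495).

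ZF-SGLT2i rats were also set against ZL rats, to see which markers still stood apart from lean animals. These 2 comparisons with the treated group share its 4 rats and are not independent. The earlier biopsies described for ZL and not for treated rats cannot be told apart from the group difference here. In this comparison 7 of the 10 markers were higher and 1 was lower, where 12.4% of all genes tested were called higher, 15.0% lower and 27.4% in either direction. The 7 were Havcr1, Spp1, Clu, Krt8, Krt18, Vim and Cd44, and the lower gene was Vcam1. The log2 fold change over ZL was 2.12 for Havcr1 (SE 0.57, limma adjusted p = 0.015), 1.56 for Spp1 (SE 0.47, limma adjusted p = 0.025), 0.84 for Clu (SE 0.14, limma adjusted p = 0.0010) and 0.95 for Vim (SE 0.14, limma adjusted p = 0.00041). Krt8 was higher by 0.35 (limma adjusted p = 0.0089) and Krt18 by 0.48 (limma adjusted p = 0.028). Lcn2 was not called, at 1.06 (SE 0.40, limma adjusted p = 0.065), although edgeR and DESeq2 on the whole reads gave adjusted p of 0.0406 and 0.0278. In 6 of the 7, all but Krt18, every treated rat lay above every lean rat, an arrangement of 12.9% of all tested genes, and for Vcam1 every treated rat lay below every lean rat, as for 15.1% of genes. For Havcr1 the lowest treated rat, rat 6, and the highest lean rat, rat 4, had 21 reads each, so only library scaling set them apart. Leaving out a rat ended the Spp1 call without ZL rat 1 or treated rat 2 or 3 (adjusted p from 0.0558 to 0.0789) and the Krt18 call without ZL rat 3 or 4 or treated rat 3, 4 or 6 (adjusted p from 0.0595 to 0.0775). The Krt18 call was also lost with a block for rat number and with array quality weights (0.35, limma adjusted p = 0.0605).

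Across the 3 groups the means ran from ZF through ZF-SGLT2i down to ZL for 8 of the 10 markers. They were 26.6, 13.6 and 1.71 CPM for Havcr1, 10.8, 7.44 and 2.67 CPM for Lcn2, 813, 569 and 169 CPM for Spp1 and 205, 167 and 92.5 CPM for Clu. Krt8, Krt18, Vim and Cd44 had the same order. The step from ZF to ZF-SGLT2i was not called for any of the 8. For Vcam1 the treated group was the lowest, at 16.1 CPM against 23.4 CPM in ZL and 26.8 CPM in ZF, and the difference between ZL and ZF was not called. For Krt19 no difference between groups was called.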

How the data were processed

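The table that the authors deposited holds 1 normalized value per gene and rat, for 13151 genes and 12 rats, here called CPM. Each deposited value (a signal, from read counts scaled by library size) came out as whole reads after division by 1 factor per rat (100% of values, tolerance 0.001), and equals the CPM that edgeR gives with TMM factors. The submitters' processing notes name Trimmomatic 0.38, RSEM 1.3.0, Bowtie2, edgeR and build rn6, without roles. How reads shared by similar genes were split is not given in the sources used here.

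The 11633 genes that reached a value of 1 in 4 or more rats entered a limma 3.58.1 fit (R 4.3.3) of log2(value + 1), with the 3 groups together, the trend option and Benjamini-Hochberg adjustment over all tested genes. Calls were made below an adjusted p of 0.05. Single values were compared with exact two-sided permutation tests of the 70 assignments of 4 against 4. Each library was taken as 1 rat from the number in its label, and p-values measure the spread between these samples. No rats of a group were copies (chi-square per gene 5.63 to 52.5). Every gene named is a marker, a partner of one, the called gene with the largest rise or fall of its list, the most abundant gene of a cell type list or among the 3 nearest genes of a marker; Nes, Egf, Tie1, Cd2, Sox9, list genes at 0 or too low to test and keratins without a value were named after their values were seen. A gene that this rule takes in is not reported here. The markers and lists were chosen with earlier results of these data known. The alternatives included edgeR 4.0.16 and DESeq2 1.42.0 on whole reads. The scripts were tested on simulated data.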

Additional observations from a re-analysis of the deposited data

Results flagged for a closer look

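In 2 of the 30 groups of 4 rats (10 markers in 3 groups), 1 rat lay further from the rest than Dixon's 95% critical value allows, where chance gives about 1.5. Spp1 was 178 CPM in ZL rat 2 and 166 to 167 CPM in the other 3 lean rats, a gap that is small beside the difference from the ZF rats. Vim was 184 CPM in ZF rat 2 and 111 to 120 CPM in the other 3 ZF rats, and ZF rat 2 was also the highest of its group in Havcr1, Lcn2, Spp1, Clu and Krt19. Without ZF rat 2 the log2 fold change of Vim in ZF over ZL was 0.88 in place of 1.04, and the call held.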

How the results depend on the processing

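Over 654 refits of single markers, the ratios not counted, 609 kept direction and side of the threshold, 27 lost a call, 8 gained one and 10 reversed; causes were not tested. Genes called numbered 2185 in ZF against ZL, 366 in ZF-SGLT2i against ZF and 3184 in ZF-SGLT2i against ZL. Leaving out each rat gave 1384 (without ZL rat 1) to 2453, 176 (without treated rat 3) to 569 (without ZF rat 5), and 2238 to 3302; the first was also low without ZF rat 2 (1454) and 3 (1426), and the second without ZF rat 2 (206), 3 (184) and 4 (188) and treated rat 4 (209) and 6 (181). Array quality weights gave 689 and DESeq2 641 for ZF-SGLT2i against ZF. Markers called ran from 7 to 8, 0 to 1 and 6 to 9 with a rat left out. The rat numbers do not pair the samples (correlations of same-numbered rats -0.376 to 0.253). With the replicate block 807, 223 and 1502 genes were called; adjusted p was 0.054 for Krt18 in ZF over ZL, and 0.0556, 0.0727 and 0.0319 for Krt18, Vcam1 and Lcn2 in ZF-SGLT2i over ZL.

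Reversals were small. Krt19 in ZF-SGLT2i against ZF was 0.10 with array quality weights and ran from -0.18 to 0.18 with a rat left out. In that comparison Spp1 ran from -0.78 to 0.0106, Vim from -0.17 to 0.0686, Cd44 from -0.11 to 0.0366, and the log2 ratios of Krt8 and Krt19 to Krt18 from -0.0397 to 0.19 and from -0.0723 to 0.42. Krt19 in ZF against ZL ran from -0.56 to 0.0059. In ZF-SGLT2i over ZL, Krt18 was not called with weights (0.35, adjusted p = 0.0605), and Lcn2 passed with weights (adjusted p = 0.0211) and with the 2 groups alone (0.0312). Lcn2 had 25 to 30 reads in ZL rats and Havcr1 15 to 21. The SD of log2(CPM + 1) was 0.199 in ZL and 0.876 in ZF rats for Lcn2, and 0.0685 and 1.18 for Havcr1. The part of the low reads in the precision of both fold changes was not tested.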

Other observations

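Blood cell genes were low in the cortex. Hba1, the most abundant of them, had group means of 1.06 CPM in ZL, 3.94 CPM in ZF and 8.09 CPM in ZF-SGLT2i rats, and was at 0 in 3 of the 12 rats. None of the 3 blood genes tested was called in ZF against ZL by limma, where 1 had an unadjusted p under 0.05. Sox9, a transcription factor of regenerating tubules, had means of 109 CPM in ZL, 68.7 CPM in ZF and 100 CPM in ZF-SGLT2i rats and was not called, with a log2 fold change of -0.60 in ZF over ZL (limma adjusted p = 0.13). It was singled out after its values were seen, because its mean was lower where those of Havcr1, Lcn2 and Spp1 were higher.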
